A study of Mus musculus with 9 samples.

Results

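The genes described here encode the proteins of the cytosolic ribosome. They were chosen by symbol alone (Rpl or Rps followed by a number, together with Rplp0, Rplp1, Rplp2 and Rpsa, and without entries marked as pseudogenes by "-ps" or the S6 kinases), which gave 89 of the 24594 genes in the table. Of these, 77 encode canonical ribosomal proteins and are called core genes below, 46 of the large subunit and 31 of the small subunit. The other 12 are paralogs or gene copies (Rpl3l, Rpl7l1, Rpl10l, Rpl22l1, Rpl32l, Rpl36al, Rpl37rt, Rpl39l, Rps4l, Rps27l and Rps27rt) and Rps19bp1, which encodes a protein that binds a ribosomal protein. Canonical members that carry other symbols are not among them.

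Each cytosolic ribosome joins one copy of nearly every ribosomal protein to ribosomal RNA, and cells make these proteins in matched amounts. Their mRNAs carry a pyrimidine tract at the 5′ end through which growth signals set their translation, so that RNA level and protein output need not change together. In thymocytes and T cells, ribosome production accompanies growth and division, and it is known to be raised by strong T cell receptor signals.

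RNA was measured in 9 libraries of CD4 single-positive thymocytes, sorted as CD4+ CD8- CD69+ Valpha2+ VBeta5+. The cells carried OT-II, a transgenic T cell receptor that recognizes an ovalbumin peptide. They had developed for 4.7 weeks in lethally irradiated hosts that received marrow of 3 donors together: OT-II marrow lacking Nr4a1 and Nr4a3 (Nr4a1-/- Nr4a3-/-, DKO OT-II), OT-II marrow with both genes intact (OT-II) and non-transgenic wild-type marrow, mixed 1:1:3. WT hosts (BoyJ) hold no ovalbumin, whereas RIPmOVA hosts (an F1 of BoyJ with a C57BL/6 line that holds the transgene Tg(Ins2-TFRC/OVA)296Wehi) carry membrane ovalbumin under the rat insulin promoter and display it in the thymus as a self-antigen, so that OT-II cells meet positive selection in the first and deletion in the second. There were n = 2 libraries of OT-II and n = 3 of DKO OT-II from WT hosts, and n = 2 of each from RIPmOVA hosts. Equal replicate numbers within a host name the same chimeric mouse, from which both genotypes were sorted. The OT-II control marrow was an F1 of the OT-II line B6.Cg-Tg(TcraTcrb)425Cbn/J with BoyJ and the DKO marrow was C57BL/6, so genotype and donor background cannot be told apart. The hosts as given above also differ in background, so self-antigen and host background cannot be told apart in the host comparisons. The authors' methods, in contrast, describe both kinds of host as F1 mice of the RIPmOVA line crossed with BoyJ. The cells left in RIPmOVA hosts are those that had not been removed, and fewer cells of one kind and less RNA per cell cannot be told apart in such bulk samples.

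Recovered depth was 15520000 to 25050000 exonic reads a library. Gene-level RPKM of the targeted genes gave no check of the genotype labels, since it was not lower in the DKO libraries: Nr4a1 ranged from 60.1 to 87.7 in DKO OT-II and from 60.7 to 86.1 in OT-II of WT hosts, and Nr4a3 from 14.1 to 16.5 against 3.72 to 5.66 in RIPmOVA hosts. The values do not resolve the deleted exons, and DKO is used below as the label. The 8 T cell markers examined were above 0 in all 9 libraries. Their sum separated the hosts, at 7086 to 7480 RPM (exonic reads of a gene scaled to a fixed library total) in the 5 libraries from WT hosts and 6282 to 6937 in the 4 from RIPmOVA hosts. Among them Cd24a, which falls as thymocytes mature, was 19.7 to 32.7 RPKM in WT hosts and 46.8 to 75.7 in RIPmOVA hosts. These levels move with the host comparisons below, and their part in them was not tested. Markers of CD8 or double-positive thymocytes summed to 116 to 209 RPM, most of it Cd8b1, whereas the summed markers of B cells, myeloid cells, dendritic cells and thymic epithelium each stayed between 2.43 and 45.7. Erythroid markers stood apart in 2 libraries, at 36.5 in OT-II replicate 2 and 38.6 in DKO OT-II replicate 3 of WT hosts, against 1.03 to 4.76 in the other 7. Reads on olfactory, vomeronasal and taste receptor genes, which T cells do not use, varied from 296 to 1501 RPM and were on average lowest in OT-II from RIPmOVA hosts (557 and 296) and highest in DKO OT-II from RIPmOVA hosts (1055 and 1501).

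A pyrimidine tract at the start of the mRNA was looked for in the gene sequences. RefSeq promoters (GRCm38.p6, 250 bases before to 50 after each start) were matched for 68 of the 89 genes, 57 of them core. A C within 5 bases of the start and followed by at least 4 C or T stood in 27 of these 57 core genes (47.4%), against 21.2% of all 27025 genes with a promoter. The other core genes held no such run at the RefSeq start, among them Rplp0, Rpsa, Rpl5, Rpl11 and Rps3. The search covers annotated starts only, and the starts used in these cells were not measured. Rpl35a, Rps21, Rps24 and the paralog Rps27l hold the tract at some of their annotated starts and not at others. A gene without a match may thus still carry the tract. The following windows, from 10 bases before the start to 20 from it on, are given for 6 of the genes described below that hold the tract, which is in capitals. The first 4 are core genes, and Rps27 and its paralog Rps27l are set side by side.
Rpl13a, chr7:45128726-45128755, minus strand: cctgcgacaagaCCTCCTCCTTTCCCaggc
Rplp2, chr7:141447641-141447670, plus strand: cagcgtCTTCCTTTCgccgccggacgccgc
Rps6, chr4:86857348-86857377, minus strand: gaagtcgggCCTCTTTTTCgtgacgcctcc
Rpl39, chrX:37085203-37085232, minus strand: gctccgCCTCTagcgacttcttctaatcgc
Rps27, chr3:90213629-90213658, minus strand: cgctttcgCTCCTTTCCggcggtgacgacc
Rps27l, chr9:66946076-66946105, plus strand: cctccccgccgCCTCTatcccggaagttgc

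The tract was 14 bases long in Rpl13a, 10 in Rps6, 9 in Rplp2 and Rps27, and 5 in Rpl39 and Rps27l. Letter runs were also sought on either strand of the whole promoters, from 250 bases before to 50 after each start. CTTTCC, which can lie inside such a tract, stood in 50.9% of the core genes and 29.3% of all genes. CCGGAAG, a letter run bound by ETS factors such as GABPA, stood in 42.1% against 9.93%, and AAGATGGC, bound by YY1, in 8.77% against 3.19%. TATAAA stood in 10.5% against 15.7%. AAAGGTCA, the element bound by single NR4A proteins, stood in 1.75% of the core genes and 1.70% of all genes, which was 1 core gene (Rpl35a, named because it was the only match). These are matches of letters and not measured sites.

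The paralog whose values varied most between groups was Rpl39l, which replaces RPL39 at the peptide exit tunnel and is best known from germ cells. Its reads must be separated from those of Rpl39, so both coding sequences (spliced, without the stop codon, GENCODE annotation of GRCm38) are shown with the bases that differ in capitals. Rpl39l lies on chr16:10170226-10174911, plus strand, and Rpl39 on chrX:37082520-37085402, minus strand. The pair of Rps27l (chr9:66946086-66949516, plus strand) and Rps27 (chr3:90212522-90213651, minus strand) is shown for the same reason.
Rpl39l: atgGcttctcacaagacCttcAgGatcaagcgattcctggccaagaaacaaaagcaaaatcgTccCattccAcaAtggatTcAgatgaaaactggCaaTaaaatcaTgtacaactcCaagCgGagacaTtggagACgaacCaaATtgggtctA
Rpl39: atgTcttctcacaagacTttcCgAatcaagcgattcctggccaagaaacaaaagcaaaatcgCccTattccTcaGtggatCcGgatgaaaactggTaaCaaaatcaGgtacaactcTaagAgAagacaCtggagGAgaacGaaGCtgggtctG
Rps27l: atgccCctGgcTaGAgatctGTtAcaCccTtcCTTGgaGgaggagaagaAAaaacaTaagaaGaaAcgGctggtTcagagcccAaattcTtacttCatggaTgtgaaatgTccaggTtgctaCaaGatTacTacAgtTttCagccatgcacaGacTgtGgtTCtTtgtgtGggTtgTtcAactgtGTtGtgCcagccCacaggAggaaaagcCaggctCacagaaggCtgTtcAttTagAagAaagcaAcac
Rps27: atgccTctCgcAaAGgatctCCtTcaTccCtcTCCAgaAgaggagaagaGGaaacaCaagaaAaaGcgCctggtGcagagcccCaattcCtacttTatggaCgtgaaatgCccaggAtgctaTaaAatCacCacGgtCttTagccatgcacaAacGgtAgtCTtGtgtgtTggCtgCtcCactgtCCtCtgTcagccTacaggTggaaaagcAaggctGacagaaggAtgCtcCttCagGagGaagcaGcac

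Rpl39l and Rpl39 differed at 23 of 153 bases, with a longest identical run of 38 bases, and Rps27l and Rps27 at 60 of 252, with a longest run of 11. Other copies were closer to their parents. Rps27rt was identical to Rps27 over all 252 coding bases, the Rpl37rt transcript to Rpl37 over 99.7% of aligned bases and the Rpl32l transcript to Rpl32 over 97.5%. Values of these 3 copies are uncertain, because the counting could have split reads between copy and parent. Identity of coding bases was 87.7% for Rpl36al, 84.7% for Rpl10l, 74.1% for Rpl3l, 70.2% for Rpl22l1 and 56.0% for Rpl7l1, each with its parent.

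The core genes were measured deeply. The fewest reads on any core gene in any library were 430, and mean RPKM over the 9 libraries ran from 9.96 (Rpl13a) to 448 (Rplp1) with a median of 60.6. The 3 highest were Rplp1, a protein of the stalk that recruits elongation factors (362.7 to 539.7 RPKM), Rps3a1 of the small subunit (352.5 to 467.0) and Rpl36 of the large subunit (333.0 to 464.3). The order rests on the length by which reads were divided. The deposited exon length of a core gene had a median of 2987 bases against 851 for its principal transcript, and it was over 2 times as long in 64 of the 77. Levels spanned 45.0-fold between the lowest and highest core gene as RPKM, and 18.8-fold per length of the principal transcript, where Rpl32 was highest (640 RPM per kb) and Rps15a lowest (34.0). RPL13A, which takes part in repression of inflammatory mRNAs outside the ribosome, has a deposited length 5.28 times that of its principal transcript, and 6 other annotated genes overlap its gene, 5 of them small RNAs. Its level of 9.96 RPKM became 52.6 on the second scale. Of the 89 genes, 52 overlap another annotated gene and 32 of them overlap a small RNA.

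**Figure D1:**
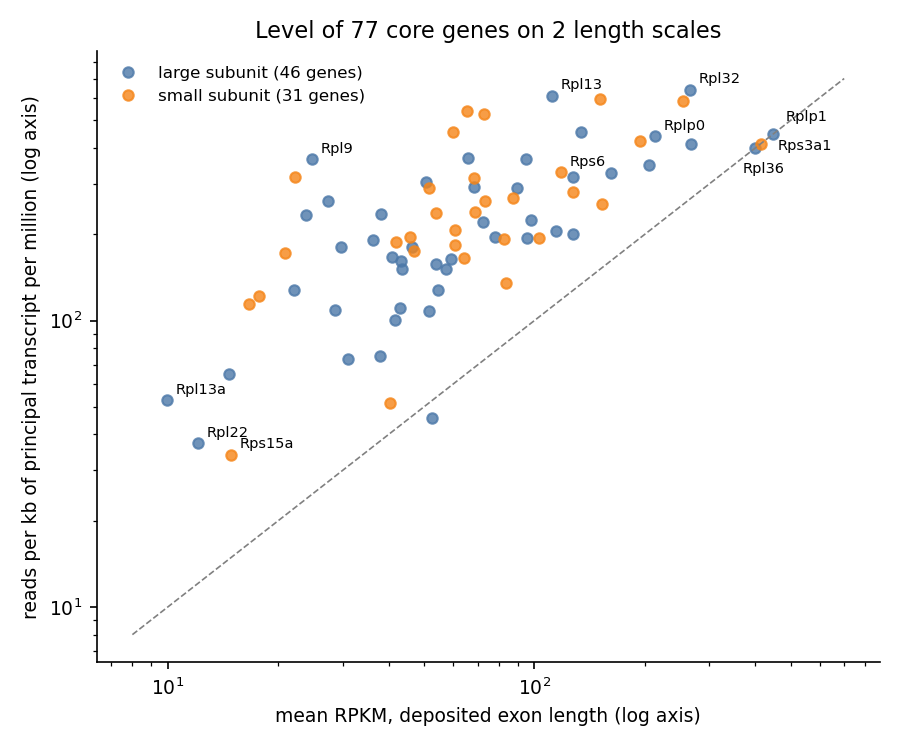
Mean level of each of the 77 core genes over 9 libraries as deposited RPKM (x axis, log scale) and as RPM per kb of the principal transcript (y axis, log scale), with large subunit genes in blue, small subunit genes in orange and the line of equal values dashed. Nearly all points lie above the line, and Rplp1, Rps3a1 and Rpl36 at the right lie on it, since their 2 lengths are the same.

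Among the other 12 genes, mean RPKM ran from 0.0561 (Rpl10l, an intronless copy known from testis) to 43.3 (Rpl7l1, a nucleolar relative of RPL7). The 3 lowest, Rpl10l, Rps4l and Rpl3l (a heart and muscle paralog, mean 0.233), did not pass the filter of 1 RPKM in at least 2 libraries. The remaining 86 genes were tested.

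Together the 89 genes held 1.43% to 1.94% of exonic reads. The share was 1.796% and 1.644% in OT-II from WT hosts, 1.944%, 1.620% and 1.850% in DKO OT-II from WT hosts, 1.573% and 1.432% in OT-II from RIPmOVA hosts, and 1.711% and 1.690% in DKO OT-II from RIPmOVA hosts. Both OT-II libraries from RIPmOVA hosts lay below the other 7. The group means were 1.72% ± 0.108 (SD, n = 2), 1.805% ± 0.167 (n = 3), 1.502% ± 0.10 (n = 2) and 1.70% ± 0.0150 (n = 2) in the same order. Within a group the spread was as wide as between groups in WT hosts, where DKO OT-II replicate 2 lay below both OT-II libraries. Duplicate reads had been removed without molecular identifiers, which lowers short and highly expressed genes most, and the shares are after that step.

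The core genes moved as one from library to library. Relative to its own mean over the 9 libraries, every one of the 77 was high in DKO OT-II replicates 1 and 3 from WT hosts (median 0.20 and 0.13 on the log2 scale) and every one was low in OT-II replicate 2 from RIPmOVA hosts (median -0.24). In OT-II replicate 1 from RIPmOVA hosts 70 of 77 were below their mean (median -0.10), and in the DKO OT-II libraries from the same hosts 35 and 42 were below it (medians 0.01 and -0.01). Across the 9 libraries a core gene's highest RPKM was 1.20 to 1.58 times its lowest, with a median of 1.39. Pearson's r between a gene and the median core gene was 0.422 to 0.996 with a median of 0.915 over the 9 libraries, and it was above 0.5 in 76 of 77 core genes. The exception was Rps15a. These correlations describe libraries that share depth and scaling, and no p is given.

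**Figure D2:**
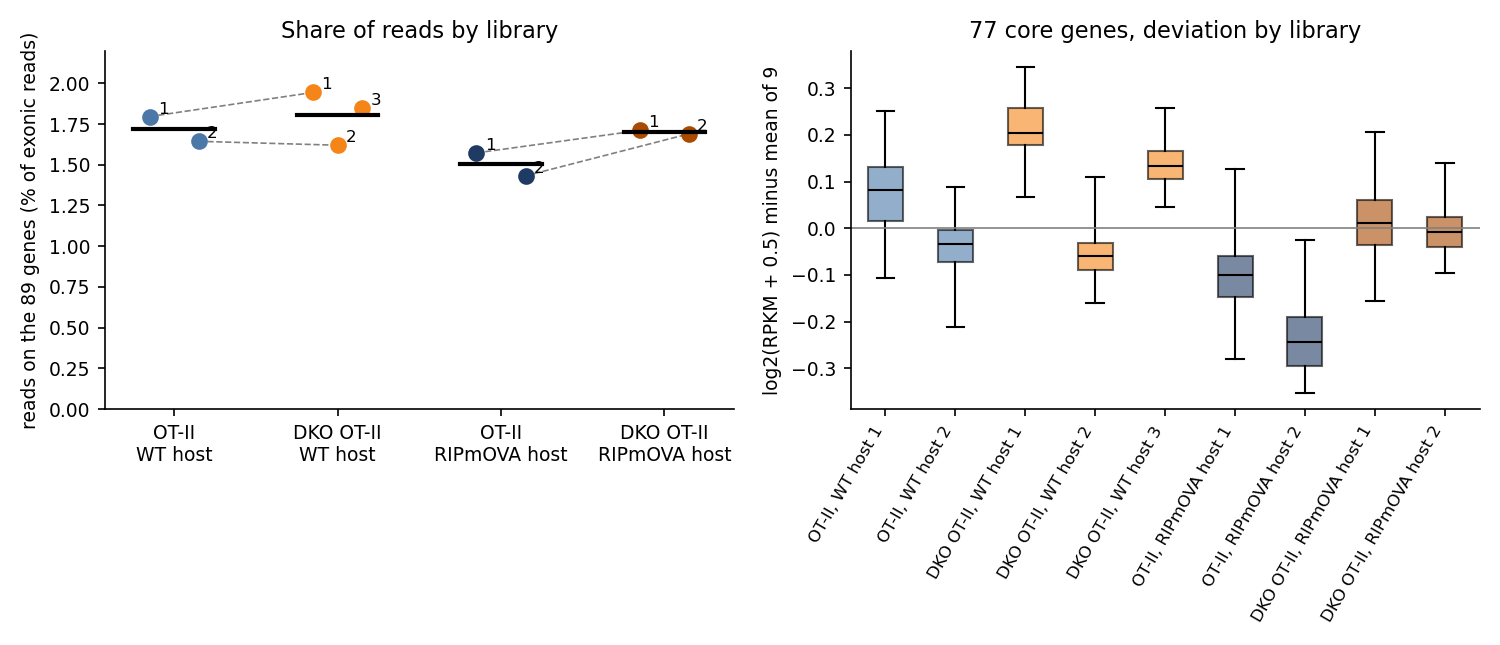
Left, reads on the 89 genes as a percentage of exonic reads in each library (points, numbered by replicate; bars are group means; dashed lines join libraries from the same mouse). Right, log2(RPKM + 0.5) of the 77 core genes minus each gene's mean over 9 libraries (box, quartiles and median; whiskers, full range). OT-II libraries from RIPmOVA hosts have the lowest shares (1.573% and 1.432%), and DKO OT-II replicates 1 and 3 from WT hosts the highest.

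Within a chimera, where both genotypes came from the same mouse, the DKO OT-II share was higher by 0.148 percentage points in WT host 1 and lower by 0.0242 in WT host 2 than that of OT-II. It was higher by 0.138 and 0.258 points in the RIPmOVA hosts. Of the 77 core genes, 69 were higher in DKO OT-II in WT host 1, 21 in WT host 2, 64 in RIPmOVA host 1 and 76 in RIPmOVA host 2. The direction was thus the same in 3 of 4 chimeras. Since the core genes move together by library, these counts are not 77 separate observations.

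**Figure D3:**
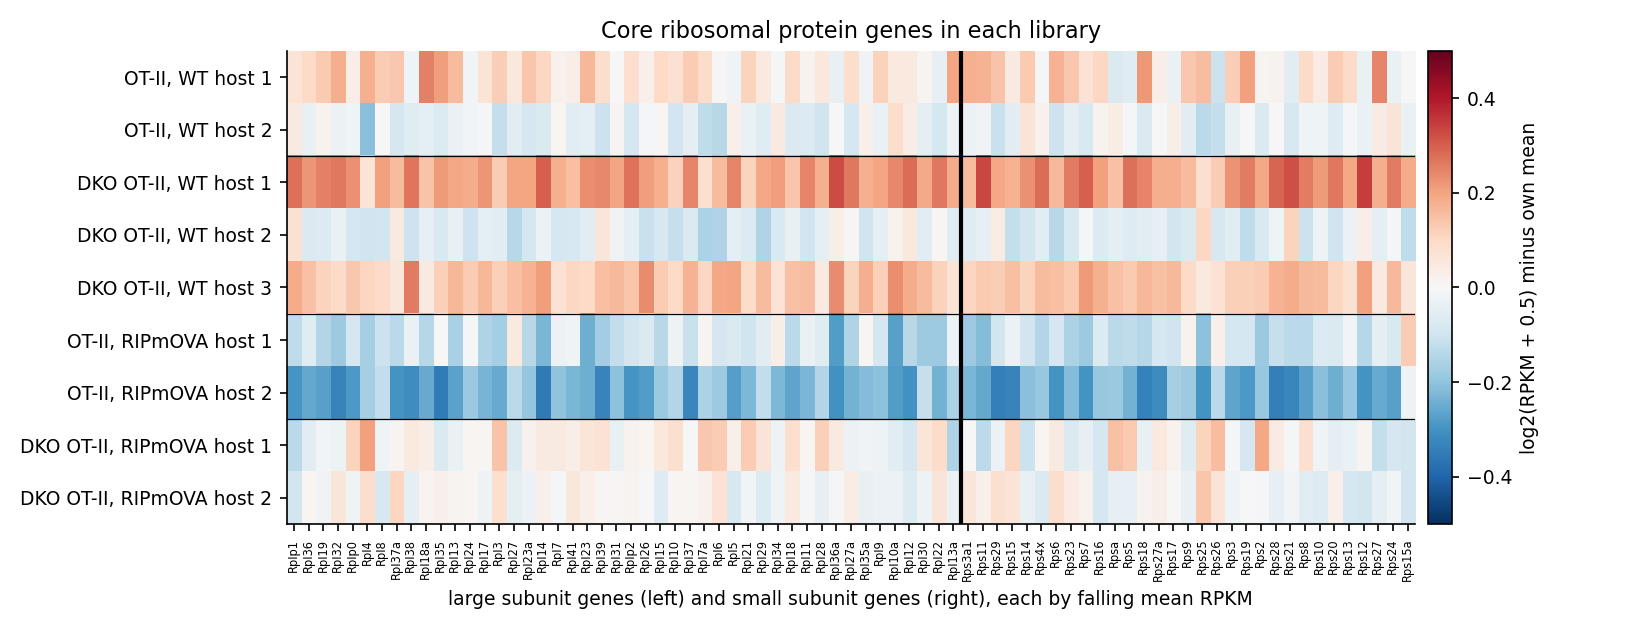
log2(RPKM + 0.5) of each of the 77 core genes (columns, 46 of the large subunit on the left of the line and 31 of the small subunit on the right, by falling mean RPKM) minus its mean over the 9 libraries (rows); red is above and blue below the mean. Colour runs along rows: the row of OT-II replicate 2 from RIPmOVA hosts is blue in all 77 columns, and those of DKO OT-II replicates 1 and 3 from WT hosts are red in all 77.

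Comparisons between groups were made with limma on log2(RPKM + 0.5) over all 11569 genes that passed the filter, with Benjamini-Hochberg adjustment over all of them. No ribosomal protein gene passed an adjusted p of 0.05 in any of the 5 comparisons, and so none was called with the further limit of a log2 change of 1. For the core genes the 95% confidence intervals lay within 1 log2 unit of 0 in each comparison, all 77 of them, the widest bounds being -0.61 and 0.67. The sizes and directions below are therefore values, and the comparisons share libraries: the OT-II libraries from RIPmOVA hosts enter both the host comparison in OT-II and the genotype comparison in RIPmOVA hosts.

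The host comparison in OT-II sets cells from hosts that display the self-antigen against cells from hosts that do not. There the median of the 86 genes was -0.19 (a change of -12.4% in RIPmOVA hosts on the scale of RPKM + 0.5), against -0.02 for all genes, and 80 of 86 were below 0. Background shares were 1.89% of all genes past the adjusted p and 1.23% with the fold limit, against 0 of these genes. Unadjusted p was under 0.05 for 20 genes on the lower side (23.3%, background 6.92%) and for 2 on the higher side (2.33%, background 7.41%). The 2 groups did not overlap, with both RIPmOVA libraries lower, in 60 genes (69.8%, background 22.1%), and with both higher in 3 (3.49%, background 19.4%). All 46 core genes of the large subunit and 29 of 31 of the small subunit were below 0, and both subunits had a median of -0.19. The median of the 86 genes was -0.12 without OT-II replicate 2 of RIPmOVA hosts, which had the lowest share, and it stayed below 0 without any one library and under each scaling tried. The count of 20 did not stay in every setting. It was 0 (background 3.58%) after median-of-ratios rescaling, 2 (2.33%, background 5.75%) without OT-II replicate 2 of RIPmOVA hosts and 2 (2.33%, background 4.59%) without OT-II replicate 1 of WT hosts, all below the share of all genes. It was 6 (6.98%) without the intensity trend (background 6.32%) and 6 with the sensory receptor covariate (background 4.89%). It was 34 (39.5%, background 7.52%) without DKO OT-II replicate 2 of WT hosts. After quantile scaling it was 26 (30.2%, background 7.72%), and with replicate number as a block across hosts 30 (34.9%, background 6.59%). A count-based fit (voom) gave 16 (18.6%, background 6.18%), and only the groups compared gave 14 (16.3%, background 5.60%).

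Rplp1 was 467.0 and 459.7 RPKM in OT-II from WT hosts and 408.1 and 362.7 in OT-II from RIPmOVA hosts. The groups did not overlap, and the log2 change was -0.27 (SE 0.10, adjusted p 0.23 by limma). Rplp0, the scaffold of the same stalk, was 217.0 and 208.8 against 199.5 and 174.0 RPKM, a log2 change of -0.19, and Rplp2 changed by -0.19 as well. Of the proteins that carry 5S RNA into the large subunit and can bind MDM2, Rpl5 was 42.2 and 43.5 against 40.6 and 35.3 RPKM (-0.18), and Rpl11 36.6 and 34.5 against 35.3 and 30.8 (-0.11), the latter with overlapping groups. Rps6, the substrate of the S6 kinases, was 132.8 and 109.4 against 110.8 and 95.5 RPKM (-0.23, groups overlapping). Rpsa, which also serves as a laminin receptor, changed by -0.14, Rps3, which also has a role in DNA repair, by -0.22, and Rps27a, made as a fusion with ubiquitin, by -0.22. None of these passed the adjusted p.

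The lowest core value was that of Rpl10a, chosen after its value was seen, at -0.34 (SE 0.10, adjusted p 0.15 by limma), with 24.5 and 25.2 against 19.5 and 19.4 RPKM. The lowest of all 86 was Rpl32l at -0.47 (adjusted p 0.19), the processed copy 97.5% identical to Rpl32, with 5.65 and 7.28 against 4.56 and 4.45 RPKM from 30 to 67 reads a library. A few genes ran the other way. Rps15a, named after its value was seen, was 14.8 and 14.5 against 16.2 and 14.5 RPKM, the highest core value at 0.07. Rps27l was 34.0 and 39.96 against 52.8 and 43.0 RPKM (log2 change 0.37, adjusted p 0.22) and Rps19bp1, which binds RPS19 and activates SIRT1, 9.51 and 9.32 against 11.9 and 10.4 (0.23, adjusted p 0.45), neither with overlap between groups.

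In DKO OT-II the same host comparison gave a median of -0.11, against 0.03 for all genes, with 74 of 86 below 0. Background shares were 3.35% past the adjusted p and 1.68% with the fold limit. Unadjusted p was under 0.05 for 4 genes on the lower side (4.65%, background 7.78%) and for 0 on the higher side (background 9.86%). The groups did not overlap for 9 genes on the lower side (10.5%, background 17.3%) and 1 on the higher side (1.16%, background 22.7%). The shares on the lower side were thus below those of all genes. Without DKO OT-II replicate 2 of WT hosts, however, 23 genes had an unadjusted p under 0.05 on the lower side (26.7%, background 9.61%), and without replicate 1 it was 1 gene (1.16%, background 5.29%). The median rested on DKO OT-II replicates 1 and 2 of WT hosts, being -0.04 without the first and -0.19 without the second, and it was -0.28 after median-of-ratios rescaling, when that of all genes was -0.14. After quantile scaling it was -0.05, against -0.02 for all genes. Rplp1 had the lowest core value at -0.29 (SE 0.09, adjusted p 0.12 by limma), with 539.7, 469.1 and 506.1 RPKM in WT hosts and 405.4 and 417.5 in RIPmOVA hosts, which did not overlap. Rpl22l1, a paralog of RPL22, a protein needed for T cell development, was 32.8, 26.9 and 30.8 against 23.0 and 26.0 RPKM (-0.29, adjusted p 0.19). Rpl22 itself was 14.5, 12.1 and 13.0 against 12.9 and 12.6 RPKM, with overlapping groups and a log2 change of -0.05. Rpl4 was highest at 0.12, with overlapping groups, and under median-of-ratios scaling it was -0.05.

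**Figure D4:**
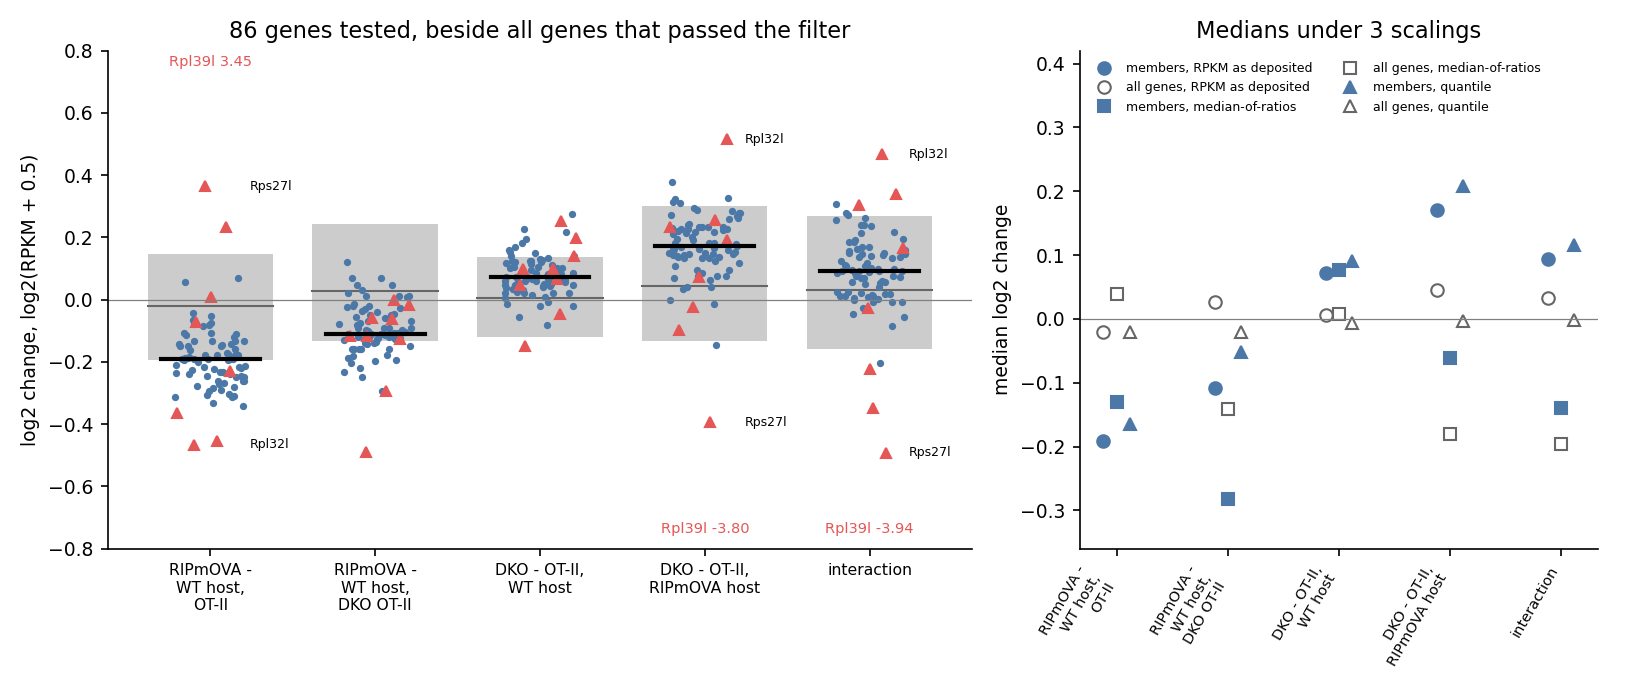
Left, log2 change of each of the 86 genes tested in the 5 comparisons (blue points, core genes; red triangles, the other 9; black bar, their median), with the quartile range and median of all 11569 genes in grey; values of Rpl39l beyond the axis are written at its edge. Right, medians of the 86 genes (filled) and of all genes (open) under 3 scalings. In RIPmOVA hosts the median for DKO against OT-II is 0.17 with the deposited scaling and -0.06 after median-of-ratios rescaling, while all genes go from 0.04 to -0.18.

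Between genotypes in WT hosts, the median of the 86 genes was 0.07 in DKO OT-II over OT-II, against 0.01 for all genes, and 78 were above 0. Background shares were 0.0692% past the adjusted p and 0.0605% with the fold limit. Unadjusted p was under 0.05 for 1 gene on the higher side (1.16%, background 4.25%) and 0 on the lower side (background 3.64%). The groups did not overlap for 8 genes on the higher side (9.30%, background 10.5%) and 0 on the lower side (background 10.3%). The highest value was that of Rps21 at 0.27 (SE 0.09, adjusted p 0.47 by limma), 44.8 and 44.0 against 58.4, 50.3 and 53.1 RPKM, and the lowest that of Rps27rt at -0.15. Rps19bp1 was higher in all 3 DKO libraries (11.9, 9.999 and 12.1 against 9.51 and 9.32 RPKM, log2 change 0.25, adjusted p 0.64). The fit that held each chimera fixed gave a median of 0.05, and leaving out single libraries gave 0.02 (without DKO OT-II replicate 1 of WT hosts) to 0.15 (without its replicate 2), with 0.03 and 0.13 without OT-II replicates 2 and 1 of WT hosts and 0.05 without DKO OT-II replicate 3. Without its replicate 2, 19 genes had an unadjusted p under 0.05 on the higher side (22.1%, background 4.27%).

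In RIPmOVA hosts the median of DKO OT-II over OT-II was 0.17 with the deposited scaling, against 0.04 for all genes, and -0.06 after median-of-ratios rescaling, against -0.18 for all genes. Relative to all genes the shift was thus 0.13 and 0.12, but it was 0.0092 with no filter on low values, where all genes had a median of 0.16, and 0.21 after quantile scaling. It was 0.07 without OT-II replicate 2 of RIPmOVA hosts and 0.20 without replicate 1. With the deposited scaling 79 of 86 genes were above 0, and after the rescaling 65 of 86 were below it. Background shares were 2.21% past the adjusted p and 1.07% with the fold limit. Unadjusted p was under 0.05 for 15 genes on the higher side (17.4%, background 13.5%) and 2 on the lower side (2.33%, background 7.85%). The groups did not overlap for 64 genes on the higher side (74.4%, background 34.6%) and 3 on the lower side (3.49%, background 24.4%). By unadjusted p the higher share was near that of all genes, while by overlap it was above it. The count of 15 depended on scaling and on single libraries: it was 0 after median-of-ratios rescaling (background 6.88%) and 46 after quantile scaling (53.5%, background 10.3%), 2 without OT-II replicate 2 of RIPmOVA hosts (2.33%, background 8.34%), 3 and 7 without DKO OT-II replicates 1 and 2 of RIPmOVA hosts (backgrounds 7.37% and 7.01%), and 28 without DKO OT-II replicate 2 of WT hosts (32.6%, background 14.9%). It was 24 with the chimera as a block (27.9%, background 10.97%), 7 without the intensity trend (8.14%, background 13.9%) and 6 with the covariate described next (6.98%, background 4.51%). Sensory receptor reads, at 1055 and 1501 against 557 and 296 RPM, separated the same groups. With these reads as a covariate the median was 0.21, and their part in the result was not otherwise tested.

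Rps25, a small subunit protein needed by several viral internal entry sites and named here after its value was seen, had the highest core value. It was 55.2 and 51.7 RPKM in OT-II and 68.8 and 70.2 in DKO OT-II (log2 change 0.38, SE 0.10, adjusted p 0.096 by limma). Rpl3, of the peptidyl transferase centre, was 84.03 and 79.3 against 104.4 and 100.1 RPKM (0.32, adjusted p 0.14), and Rpl22 10.54 and 10.1 against 12.9 and 12.6 (0.29, adjusted p 0.18). Rpl39 was 50.6 and 45.2 against 60.1 and 57.4 RPKM (0.29, adjusted p 0.16). The groups did not overlap in any of the 4. Rpl32l had the highest value of all, 4.56 and 4.45 against 6.86 and 6.46 RPKM (0.52, adjusted p 0.11). On the other side, Rps15a was 16.2 and 14.5 against 13.8 and 13.8 RPKM (-0.15), and Rpl13a was 9.75 and 8.84 against 8.86 and 9.70, with overlapping groups.

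The interaction, which is the host change in DKO OT-II minus that in OT-II, had a median of 0.09 with the deposited scaling and -0.14 after median-of-ratios rescaling, against 0.03 and -0.20 for all genes. Leaving out single libraries moved it between 0.01 (without DKO OT-II replicate 2 of WT hosts) and 0.16 (without replicate 1), with values of 0.03 and 0.15 without OT-II replicates 2 and 1 of RIPmOVA hosts and 0.04 without OT-II replicate 1 of WT hosts. Background shares were 0.0173% past the adjusted p and 0.0173% with the fold limit. Unadjusted p was under 0.05 for 1 gene on the higher side (1.16%, background 5.83%), which was Rpl32l (0.47, adjusted p 0.53), and for 2 on the lower side (2.33%, background 3.49%), which were Rpl39l and Rps27l. A difference of the host change between genotypes was thus not detected for any core gene by limma, whose smallest adjusted p among them was 0.53.

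Rpl39l varied most of the 89 genes, with a coefficient of variation of 148% over the 9 libraries. It was 0 and 3.39 RPKM in OT-II from WT hosts, 0.192, 1.16 and 2.66 in DKO OT-II from WT hosts, 17.8 and 12.3 in OT-II from RIPmOVA hosts, and 0.764 and 0.448 in DKO OT-II from RIPmOVA hosts. Both OT-II libraries from RIPmOVA hosts thus lay above the other 7, and the group mean there was 15.02 ± 3.92 RPKM (SD, n = 2). In reads these values were 0 and 100, then 6, 30 and 85, then 375 and 379, and then 20 and 10. The count of 0 allows up to 0.151 RPKM (3 reads), a limit that covers counting error only. The gene overlaps no other annotated gene.

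The log2 change of Rpl39l between hosts was 3.45 in OT-II (SE 0.89, adjusted p 0.10 by limma) and -0.49 in DKO OT-II (SE 0.81, adjusted p 0.78). Between genotypes it was -3.80 in RIPmOVA hosts (SE 0.89, adjusted p 0.066) and 0.14 in WT hosts (adjusted p 0.98), and the interaction was -3.94 (SE 1.21, adjusted p 0.46). With each chimera as a block, which compares the genotypes within the mice they shared, the change in RIPmOVA hosts was -3.80 with an adjusted p of 0.021 and passed. The change was also -3.80 without OT-II replicate 1 or without replicate 2 of WT hosts. These 2 stood apart, at 0 and 3.39 RPKM, and either fit leaves a lone library in its group, so no p is given. Without replicate 2 the host change in OT-II was 4.93 and the interaction -5.42. The parent gene Rpl39 ran the other way, at 60.8 and 53.1 RPKM in OT-II from WT hosts and 50.6 and 45.2 in OT-II from RIPmOVA hosts. Rpl39 was the higher of the pair in every library.

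Markers of other cells were set beside Rpl39l. The 5 myeloid markers summed to 45.7 and 28.8 RPM in OT-II from RIPmOVA hosts, 19.8 and 24.9 in DKO OT-II from RIPmOVA hosts, 29.1 and 13.4 in OT-II from WT hosts and 11.02 to 19.7 in DKO OT-II from WT hosts. OT-II from RIPmOVA hosts thus lay above all 5 DKO OT-II libraries, without overlap between genotypes in RIPmOVA hosts, and overlapped with OT-II from WT hosts. None of the 5 was at 0 in any library. Lyz2, a macrophage and neutrophil marker, was highest in OT-II from RIPmOVA hosts (8.44 and 18.7 RPKM, against 0.879 to 7.54 elsewhere). Cd68 was 0.704 to 1.38 RPKM there and 0.624 to 1.49 elsewhere, and Csf1r 0.043 to 0.400 against 0.098 to 0.578. Itgam was 1.41 to 1.46 against 0.676 to 1.70, and C1qa 1.67 to 3.15 against 0.118 to 1.87. All but Lyz2 thus overlapped with the other libraries. The 6 markers of CD8 or double-positive thymocytes did not run one way. Cd8a was 3.64 to 7.60 RPKM in OT-II from RIPmOVA hosts, above the other 7 libraries (1.76 to 3.39), whereas Cd8b1 was 54.5 to 69.0 there and 65.9 to 96.4 in the others. Rag1 was 0.119 to 2.94 in OT-II from RIPmOVA hosts and 0.366 to 1.30 elsewhere, Rag2 0.047 to 0.849 against 0.041 to 0.152, Ptcra 0 to 2.50 against 0 to 0.372, and Arpp21 0.206 to 0.707 against 0.331 to 0.646. These last 4 overlapped between the groups, and Ptcra alone was at 0, in 2 libraries. Summed, the 6 were 209 and 116 RPM in OT-II from RIPmOVA hosts and 141 to 183 in the other 7. The part of such cells in the Rpl39l values was not tested.

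The 250 bases before the RefSeq start of Rpl39l (chr16:10169978-10170227, plus strand, GRCm38.p6) are shown because this gene departs from the rest, with every match to the letter runs named above in capitals. They hold CCGGAAG in 2 places and CTTTCC at the end, and no AAAGGTCA.
Rpl39l, before the start: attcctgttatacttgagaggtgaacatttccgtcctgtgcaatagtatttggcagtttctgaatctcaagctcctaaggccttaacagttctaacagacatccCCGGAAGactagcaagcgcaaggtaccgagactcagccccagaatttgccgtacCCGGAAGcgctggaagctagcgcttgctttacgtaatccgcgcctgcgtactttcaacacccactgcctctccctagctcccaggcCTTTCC

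Rps27l, which p53 is known to induce, was likewise highest in OT-II from RIPmOVA hosts, at a smaller size. It was 34.0 and 39.96 RPKM in OT-II from WT hosts, 40.4, 36.2 and 42.1 in DKO OT-II from WT hosts, 52.8 and 43.0 in OT-II from RIPmOVA hosts, and 36.5 and 35.7 in DKO OT-II from RIPmOVA hosts. The OT-II libraries from RIPmOVA hosts were the highest 2 of the 9, the lower of them close to the highest DKO library of WT hosts. The change between genotypes in RIPmOVA hosts was -0.39 (SE 0.13, adjusted p 0.13 by limma) and the interaction -0.49 (SE 0.17, adjusted p 0.49). Its parent Rps27 was 20.9 and 18.1 RPKM in OT-II from WT hosts against 17.0 and 14.7 in OT-II from RIPmOVA hosts. Coding reads of Rps27 and Rps27rt cannot be told apart.

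**Figure D5:**
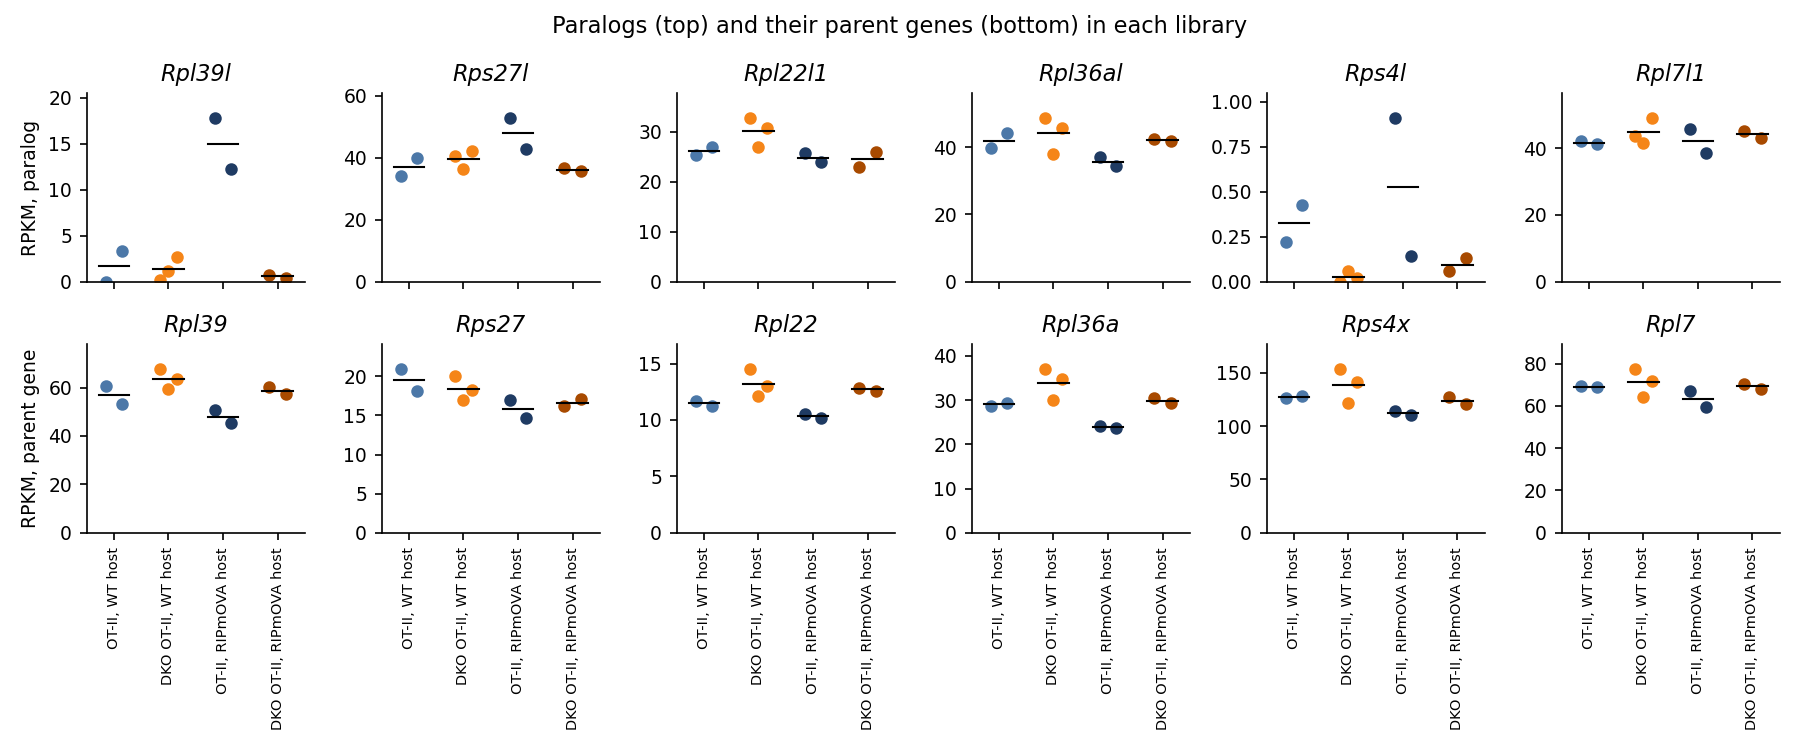
RPKM of 6 paralogs (top) and their parent genes (bottom) in each library (points) with group means (bars); every axis starts at 0 and has its own scale. Rpl39l and Rps27l are highest in OT-II from RIPmOVA hosts (17.8 and 12.3, and 52.8 and 43.0 RPKM), where Rpl39 and Rps27 are not.

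Rps4l, annotated as a transcribed processed pseudogene inside Tmtc1 on the opposite strand, was too low to be tested. It was 0.223 and 0.426 RPKM in OT-II and 0, 0.057 and 0.023 in DKO OT-II from WT hosts, and 0.910 and 0.143 against 0.057 and 0.132 in RIPmOVA hosts. At 0 to 26 reads a library, every OT-II library was above every DKO OT-II library, and reads of Tmtc1 cannot be told apart without strand. The nearest values, 0.143 RPKM in OT-II and 0.132 in DKO OT-II of RIPmOVA hosts, rest on 6 and 4 reads. The order of the genotypes is thus not resolved, and the share of all genes ordered in this way was not computed. Rpl36al, an intronless functional copy, followed its parent: 39.7 and 44.2 RPKM in OT-II from WT hosts and 37.0 and 34.4 from RIPmOVA hosts, with Rpl36a at 28.7 and 29.4 against 24.2 and 23.8. Rpl7l1 stayed between 38.4 and 49.0 RPKM in all libraries, with log2 changes of -0.02 to 0.10 in the 4 pairwise comparisons. Over the 9 libraries, Pearson's r with the median core gene was -0.72 for Rpl39l, -0.43 for Rps4l, -0.31 for Rps27l and 0.29 for Rps19bp1, given as descriptions.

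Genes that work with the ribosomal proteins were taken as lists. Of 27 translation factors and other mRNAs with pyrimidine tracts that were tested, 0 passed the adjusted p by limma or voom in any comparison. Their medians were -0.04 and 0.06 between hosts in OT-II and DKO OT-II, and 0.08 and 0.19 between genotypes in WT and RIPmOVA hosts, where 2, 3, 2 and 7 had an unadjusted p under 0.05 (7.41%, 11.1%, 7.41% and 25.9%, against backgrounds of 14.3%, 17.6%, 7.89% and 21.4%, either direction). After median-of-ratios rescaling all but the third of these medians changed sign (0.02, -0.11, 0.08 and -0.03). Of 54 ribosome biogenesis genes, 2 passed by limma (background 2.21%), both higher in DKO OT-II than in OT-II of RIPmOVA hosts: Nop58, a core protein of box C/D particles that modify ribosomal RNA, and Polr1b, a catalytic subunit of RNA polymerase I. Nop58 was 5.68 and 5.30 RPKM in OT-II and 10.1 and 8.69 in DKO OT-II of these hosts (log2 change 0.72, SE 0.12, adjusted p 0.017 by limma), and Polr1b 6.21 and 6.15 against 11.1 and 9.96 (0.72, SE 0.10, adjusted p 0.011). These 2 were named because they were the ones that passed. In WT hosts Nop58 was 7.02 and 6.42 RPKM in OT-II and 8.45, 7.80 and 7.81 in DKO OT-II. Polr1b was 6.55 and 6.91 against 9.09, 9.05 and 8.63 RPKM there. Neither gene overlapped between genotypes in WT hosts, and neither passed the adjusted p by limma there. Voom on recovered reads called 5 of the 54 between genotypes in RIPmOVA hosts (9.26%, background 2.54%). It also called 1 between hosts in OT-II (1.85%, background 1.72%), which was Wdr12, a factor of large subunit assembly, at -0.64, and 0 between hosts in DKO OT-II (background 4.12%). By unadjusted p, 6, 5, 16 and 25 of the 54 were under 0.05 in the order given (11.1%, 9.26%, 29.6% and 46.3%, against the same backgrounds as above), all 16 and all 25 of them higher in DKO OT-II. After median-of-ratios rescaling 5 were higher in each of these 2 (9.26%, against 3.04% and 6.88% of all genes). The medians of the list were -0.11 and 0.03 between hosts, and 0.14 and 0.27 between genotypes, with 50 of 54 genes above 0 in the last comparison. After median-of-ratios rescaling these medians were -0.05, -0.14, 0.14 and 0.04, and 30 of 54 were above 0 in the last.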

How the data were processed

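Bulk RNA was measured in 9 libraries of sorted thymocytes, for which the authors prepared cDNA from few cells with SMART-seq v4 and libraries with Nextera XT. The authors aligned paired reads to mm10 with STAR (version not given in the sources used here) and GENCODE vM17, removed duplicates with Picard, and counted exonic reads per Entrez gene without a stated use of strand. The deposited unit is RPKM, which the authors scaled to exon length and exonic reads. They tested differences with a count model. The number of reads was recovered from steps between low RPKM values, 100% of which were then whole (1.87% to 3.67% at a wrong total); intervals and limits from reads cover counting error only.

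Genes with at least 1 RPKM in at least 2 libraries (11569) were fitted as log2(RPKM + 0.5) with limma 3.58.1 in R 4.3.3, by a group-means model over all 9 libraries with an intensity trend. Adjusted p-values are two-sided and cover all genes kept, at a limit of 0.05, and the fold limit was a log2 change of 1. Scripts were tested on simulated data. Genotypes of a chimera share a mouse per the labels, so the chimera was a block in an alternative fit. Deviations of same-mouse libraries correlated at r = 0.006 and -0.24 over all genes in WT hosts 1 and 2. Over the ribosomal protein genes r was 0.913 and 0.491 in these hosts. Rpl39l weighs heavily on these last values, at 0 and 3.39 RPKM in OT-II and 0.192 to 2.66 in DKO OT-II. They were not computed without it, so they show no mouse effect shared by the core genes. The 2 OT-II libraries of WT hosts also have mirrored deviations by construction. In RIPmOVA hosts the deviations gave r of -0.079 over all genes and -0.088 over the ribosomal protein genes. Both mice there have the same r by construction with 2 libraries a group. An exact permutation test of 2 against 2 libraries cannot pass the limit and was not used. Annotation came from GENCODE vM21 on GRCm38 and promoters from RefSeq on GRCm38.p6, both of the build that mm10 names.

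The genes, lists, tests and alternatives were chosen with earlier results of these data known. Named were the extremes of each comparison, paralogs with their parents, 11 genes fixed by role (Rpsa, Rplp0, Rplp1, Rplp2, Rpl5, Rpl11, Rps6, Rps3, Rpl13a, Rps27a and Rps19bp1) and the 3 highest and lowest levels; others are marked where they stand. Alternatives were other pseudocounts (0.1 and 1), no filter or one at 5 RPKM, median-of-ratios and quantile scaling, only the groups compared, no trend, a covariate for sensory receptor reads, core genes only, blocks, and leaving out each library. A count-based fit (voom) and levels per principal transcript were added after the data were seen. No protein sequences were used here. A small further gene list is not reported here.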

Additional observations from a re-analysis of the deposited data

Results flagged for a closer look

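Rps25 was the only ribosomal protein gene whose host change ran in opposite directions without overlap in the 2 genotypes. The share of all genes with such opposite changes was not computed. Groups without overlap were common among all genes, at 22.1% on the lower side in OT-II and 22.7% on the higher side in DKO OT-II. Its log2 change from WT to RIPmOVA hosts was -0.262 in OT-II (71.0 and 58.0 against 55.2 and 51.7 RPKM), where both RIPmOVA libraries lay below both WT libraries. It was 0.0462 in DKO OT-II (67.5, 68.5 and 66.0 against 68.8 and 70.2 RPKM), where both RIPmOVA libraries lay above all 3 WT libraries. Over all 9 libraries the interaction was 0.31 (SE 0.14, adjusted p 0.53 by limma) and did not pass. The spread of the OT-II libraries from WT hosts, 71.0 and 58.0, was larger than the change in DKO OT-II.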

How the results depend on the processing

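No ribosomal protein gene passed the adjusted p in the DKO host comparison or in the genotype comparison in WT hosts under any alternative. In the genotype comparison in RIPmOVA hosts 1 gene passed, also with the fold limit, after median-of-ratios rescaling, with only the groups compared, with a pseudocount of 1 and with the chimera as replicate block; it was Rpl39l, at -3.95, -3.80, -3.30 and -3.80 with adjusted p of 0.029, 0.0062, 0.036 and 0.021. Of all genes in these 4 fits, 342, 471, 306 and 180 passed the adjusted p in the same order. Quantile scaling gave 3 genes (Rpl39l, Rpl3 and Rpl14), 1 of them with the fold limit. With it, 407 of all 11569 genes passed the adjusted p. Leaving out 1 DKO OT-II library of WT hosts gave 0 genes by adjusted p in every comparison. Leaving out any other library leaves a lone library in its group, which was assumed to vary like the others. Only sizes are given for these fits here. Without either OT-II library of WT hosts, Rpl39l and Rps25 changed by -3.80 and 0.38 between genotypes in RIPmOVA hosts. Without OT-II replicate 2 of WT hosts, Rpl39l changed by 4.93 between hosts in OT-II, and its interaction was -5.42. The block by chimera changed no other call, nor did a replicate block across hosts, whose numbers name different mice.

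Median-of-ratios rescaling moved the median of the genes to -0.28 in the DKO host comparison, -0.061 in the genotype comparison in RIPmOVA hosts and -0.14 in the interaction, the last 2 with a changed sign; the median of all genes moved from 0.03, 0.04 and 0.03 to -0.14, -0.18 and -0.20. Single genes also changed sign. Rpl4 between hosts in DKO OT-II was -0.053 after that rescaling. Rpl39l between hosts in DKO OT-II was 0.34 with the sensory receptor covariate, 0.03 with the replicate block across hosts and 0.03 without DKO OT-II replicate 3 of WT hosts, within -1.07 (without DKO OT-II replicate 1) to 0.03 over single libraries left out. Rpl39l between genotypes in WT hosts was -0.12 with the covariate, -0.38 with the chimera as replicate block, -1.34 without OT-II replicate 1 and -0.38 without DKO OT-II replicate 3, within -1.34 to 1.62 (without OT-II replicate 2) over single libraries left out. Rpl22 between hosts in DKO OT-II was 0.017 without DKO OT-II replicate 1 and -0.11 without replicate 2, and Rps15a between hosts in OT-II was -0.0077 without OT-II replicate 1 of RIPmOVA hosts and 0.15 without replicate 2. Median-of-ratios rescaling divides each library by 1 factor, taken over genes above 0 in all 9 libraries. Genes well above the pseudocount thus shift nearly together in a comparison. The cause of the other changes of sign was not tested. Voom on the recovered reads called 0 of the ribosomal protein genes in each comparison, and 199, 477, 7, 294 and 0 of all genes in the order of the report. With 2 or 3 libraries a group, the smallest log2 change past the adjusted p among all genes was 0.47 and 0.35 between hosts in OT-II and DKO OT-II, 0.85 and 0.42 between genotypes in WT and RIPmOVA hosts and 2.55 in the interaction, so shifts of the size the core genes shared lie under what passed here.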

Other observations

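Mitochondrial ribosomal proteins build the separate ribosome of mitochondria. Of 78 tested, 0 passed the adjusted p in any comparison by limma or voom, and 2, 12, 1 and 5 had an unadjusted p under 0.05 between hosts in OT-II and DKO OT-II and between genotypes in WT and RIPmOVA hosts (2.56%, 15.4%, 1.28% and 6.41%, each below the 14.3%, 17.6%, 7.89% and 21.4% of all genes). Their median log2 changes were -0.03, -0.10, 0.03 and -0.02 in that order, and 0.03, -0.27, 0.03 and -0.24 after median-of-ratios rescaling. Of 8 S6 kinase genes 0 passed by limma or voom (1, 0, 1 and 1 by unadjusted p, at most 12.5%), with medians of -0.03, -0.04, -0.01 and 0.10, the first and last changing sign after the rescaling (0.03 and -0.10). Entries marked as ribosomal protein pseudogenes had medians of -0.32, 0.01, 0.08 and 0.37 over the 5 tested, of which 0 passed by limma or voom (3, 0, 0 and 3 by unadjusted p, against the same shares of all genes), and the second median was -0.16 after the rescaling; counting could have split their reads with the parent genes.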
